A study of Canis lupus familiaris with 8 samples.

Results

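Genes of the extracellular matrix, of the proteases and inhibitors that act on it, and of transforming growth factor beta (TGF beta) were examined in left ventricular RNA of dogs with type I diabetes. Members were chosen by gene symbol: collagens, laminins, fibulins, fibrillins, fibronectin, elastin, matricellular proteins, small proteoglycans, lysyl oxidases, MMPs, TIMPs, ADAMs, TGF beta ligands and receptors, latent TGF beta binding proteins and serpins. This gave 172 probe sets of 90 genes, among 23836 tested probe sets on the Affymetrix Canine Genome Array, of which 10549 carry a single gene symbol and stand for 6540 genes. A probe set is a group of short probes on the array that measures 1 transcript region, and 36 of the 90 genes had more than 1. The diabetic (DM) dogs were 0292, 0294, 1087 and 1111, 4 male mongrels given 40 to 60 mg/kg alloxan by vein, which kills the beta cells that make insulin. They were kept as DM dogs if fasting blood glucose exceeded 200 mg/dl a week later, and the heart was taken 4 weeks after the injection. The control dogs were D5, D6, D7 and D8, 4 male mongrels without alloxan. According to the methods, the dogs of both groups had been instrumented by thoracotomy for hemodynamic recording. Age is not given in the sources used here. Alloxan lowers insulin and raises glucose together, so no group separates these, or the drug itself, from diabetes.

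The matrix of the heart is a scaffold of fibrillar collagens type I and III around muscle bundles, with a basement membrane of type IV collagen, laminin and perlecan around each myocyte and capillary. Fibroblasts make most of the fibrillar part, while endothelial cells and myocytes contribute to basement membrane. MMPs and ADAMs cut matrix and cell surface proteins, TIMPs inhibit MMPs, and TGF beta, held in the matrix by latent TGF beta binding proteins, drives fibroblasts to make collagen. Serpins are a family of serine protease inhibitors and relatives, many made in liver, and were included by name. Ventricular tissue holds all of these cells, and in such bulk RNA fewer cells of a type and less RNA per cell cannot be told apart.

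Called members of the matrix group were about as frequent as called probe sets on the whole array. None of the 172 probe sets had an adjusted p under 0.05, against 4 of the 23836 tested probe sets (0.0168%), by limma with Benjamini-Hochberg adjustment. The smallest adjusted p among them was 0.0608. At an unadjusted p under 0.05, 11 of the 172 were higher in DM dogs (6.40%) and 15 were lower (8.72%), against 7.8% and 8.91% of all probe sets. The counts by role and by list given below stand beside these shares. The 4 DM values lay wholly above the 4 control values in 9 probe sets and wholly below them in 9 (5.23% each), against 4.93% and 5.87% of all probe sets. The criteria of the methods, an unadjusted P of at most 0.01 and at least a 2-fold change, held for 5 higher and 5 lower probe sets (2.91% each), against 2.45% and 2.52%. The median log2 fold change, DM minus control, was 0.073 for the matrix probe sets and 0.055 for all, and 51.7% and 51.9% of them had a positive value. With the brightest probe set of each gene, 7 of the 90 genes were higher and 10 lower at an unadjusted p under 0.05, with a median of -0.090, against -0.072 over all 6540 genes.

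**Figure D1:**
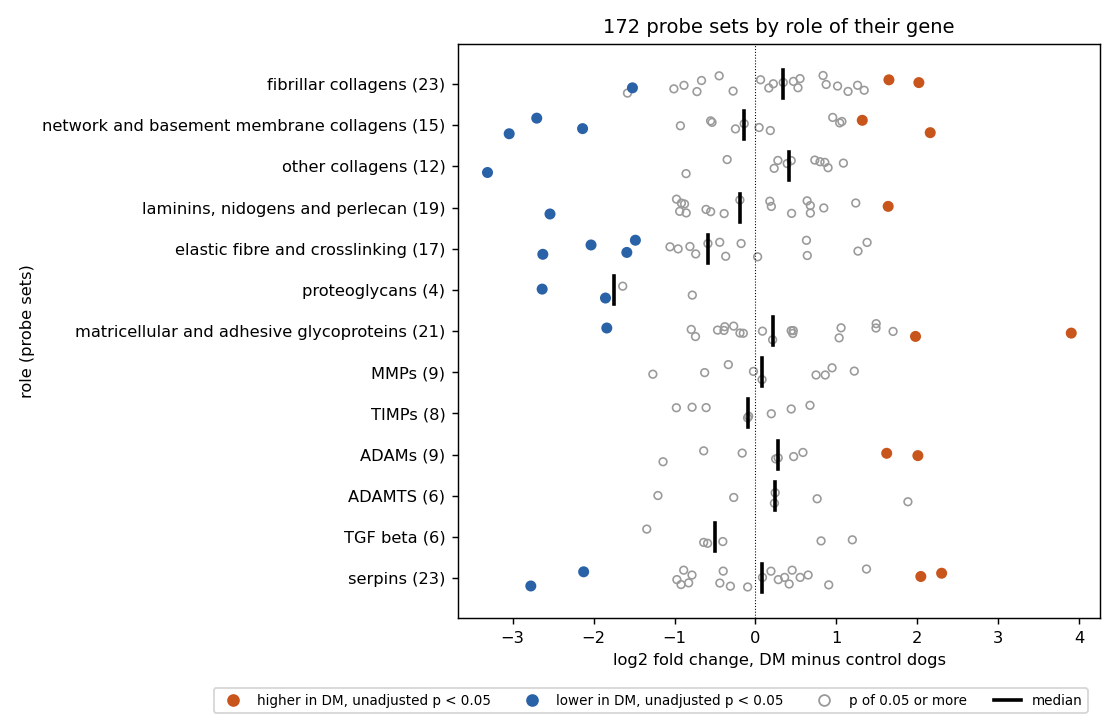
Log2 fold change (DM minus control dogs, x axis) of each of the 172 probe sets, in rows by the role of the gene, with the number of probe sets in brackets; filled points have an unadjusted p under 0.05 and bars are row medians. The 4 proteoglycan probe sets all lie below 0 with a median of -1.75, the elastic fibre row has 4 filled points below 0 and none above, and SPP1 is the point at 3.90.

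Fibrillar collagens, the tensile fibres of the matrix, showed no single direction. Of 23 probe sets of 8 genes, 15 had higher and 8 lower means in DM dogs, with a median of 0.34, and 2 higher and 1 lower passed an unadjusted p of 0.05. COL1A2, the alpha 2 chain of type I collagen, had a higher mean in DM dogs in all 5 of its probe sets, by 0.55 to 2.02 log2. The probe set 1589596_at of COL1A2 had 6.73, 7.83, 8.75 and 8.21 log2 in DM dogs 0292, 0294, 1087 and 1111, and 4.83, 6.51, 6.29 and 5.82 in control dogs D5, D6, D7 and D8. Every DM dog was above every control dog, with a fold change of 2.02 log2 (SE 0.65, adjusted p = 0.153). Its mean signal was under the median of the array, with deposited signals of 155 to 381 in DM dogs and 6.12 to 62.6 in control dogs.

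The brightest COL1A2 probe set, 1594427_at, had 13.20, 12.53, 14.71 and 12.31 in DM dogs and 13.44, 9.78, 13.90 and 10.58 in control dogs. Control dogs D6 and D8 were low there and D5 and D7 lay among the DM dogs, so its difference of 1.26 log2 (SE 0.94) was smaller than the spread in control dogs, with an SD of 2.05. COL1A1, the partner chain of the same fibre, differed the other way in both of its probe sets, by -1.01 (SE 0.91) and -0.72 (SE 0.70). Its brighter probe set, 1585698_at, had 11.98, 10.15, 10.68 and 9.79 in DM dogs, against 13.25, 10.20, 13.51 and 9.68 in control dogs, again with D5 and D7 high and D6 and D8 low. COL3A1, the chain of type III collagen, differed by -0.45 to 0.34 in 4 dim probe sets, none past an unadjusted p of 0.05. The other fibrillar probe sets at an unadjusted p under 0.05 were COL27A1 1588898_at, higher by 1.65 log2 (SE 0.71), and COL5A2 1600425_at, lower by 1.52 log2 in DM dogs (SE 0.68), with adjusted p of 0.263 and 0.286. The brightest COL5A2 probe set differed by 0.84 and the brightest COL27A1 probe set by -0.28, both opposite in sign. In all, 3 of the 4 COL5A2 probe sets had lower means in DM dogs, the lowest at -1.58. Of the 3 COL27A1 probe sets, 2 had higher means.

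Type IV collagen, the sheet of the basement membrane, held probe sets in both directions. Of 15 probe sets of network and basement membrane collagens, 2 were higher and 3 lower at an unadjusted p under 0.05. COL4A1 was the 1 gene of the 90 whose own probe sets passed that threshold in opposite directions. COL4A1 1582733_at had 6.10, 4.96, 5.54 and 6.32 log2 in DM dogs and 8.66, 9.0, 8.48 and 7.59 in control dogs. All DM dogs were below all control dogs, D8 being the nearest, and the fold change was -2.70 (SE 0.60, adjusted p = 0.0787). COL4A1 1603400_s_at, far brighter, had 13.88, 13.87, 14.90 and 14.11 in DM dogs and 12.74, 12.87, 12.99 and 12.88 in control dogs. There every DM dog was above every control dog, by 1.32 log2 in the mean (SE 0.55, adjusted p = 0.25), with D8 inside the other control dogs. The suffix _s_at marks a probe set that can match several transcripts. Another, 1587555_at, had 10.25, 9.20, 10.37 and 9.70 in DM dogs and 11.01, 10.94, 10.95 and 10.34 in control dogs, a difference of -0.93 (SE 0.57) with only 1087 above D8.

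COL4A2, the chain that pairs with COL4A1, has 1 probe set on the array, and its mean was lower in DM dogs. It had 4.81, 7.00, 4.8 and 8.92 log2 in DM dogs, against 9.57, 9.81, 9.41 and 8.92 in control dogs. Dogs 0292, 0294 and 1087 were well below all control dogs, while 1111 was level with D8, and the fold change was -3.04 (SE 0.86, adjusted p = 0.119). COL4A4, a chain of the kidney and inner ear basement membrane, had 6.66, 5.11, 8.61 and 7.64 in DM dogs and 4.78 to 4.94 in control dogs in probe set 1582907_at, a fold change of 2.16 (SE 0.73, adjusted p = 0.169). Its control values were among the lowest of the array, and the other 3 COL4A4 probe sets differed by -0.54 to 0.96. COL15A1, a collagen that links basement membrane to the surrounding fibres, had 6.87, 5.32, 6.16 and 6.76 in DM dogs and 8.74, 8.14, 8.26 and 8.53 in control dogs. Its groups did not overlap, and the fold change was -2.14 (SE 0.58, adjusted p = 0.111).

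**Figure D2:**
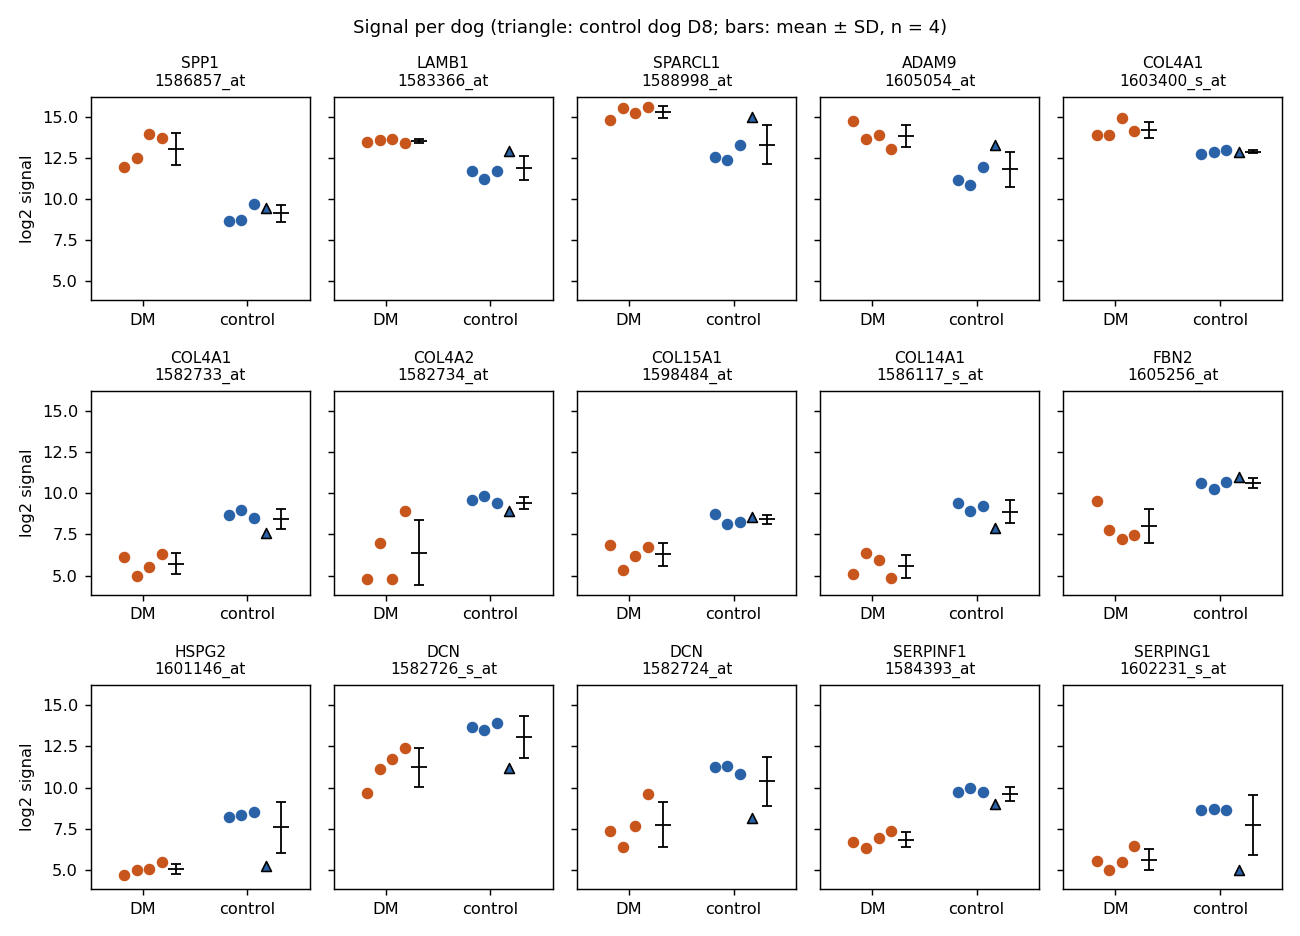
Log2 signal (y axis, quantile normalized with an offset of 16) of 15 probe sets in each of the 4 DM dogs and the 4 control dogs; bars are mean and SD, and the triangle is control dog D8. All 4 DM dogs lie above all control dogs for SPP1, LAMB1 and COL4A1 1603400_s_at, and D8 lies at the DM level for HSPG2 and SERPING1 and within the DM range for both DCN probe sets.

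Among laminins and perlecan, the cross-shaped and proteoglycan parts of the basement membrane, 1 probe set of 19 was higher and 1 lower at an unadjusted p under 0.05. LAMB1, the laminin beta 1 chain, had 13.49, 13.59, 13.63 and 13.40 log2 in DM dogs, against 11.71, 11.19, 11.71 and 12.94 in control dogs, in its bright probe set 1583366_at. The DM dogs agreed within 0.10 log2 (SD) and lay above all control dogs, of which D8 was the nearest, and the fold change was 1.64 (SE 0.58, adjusted p = 0.188). The 2 dimmer LAMB1 probe sets differed by -0.86 and -0.19, with overlap. HSPG2, the core protein of perlecan, had 4.70, 4.97, 5.03 and 5.45 in DM dogs in probe set 1601146_at, against 8.21, 8.34, 8.5 and 5.25 in control dogs. Here D8 was at the DM level, the other 3 control dogs were high, and the fold change was -2.54 (SE 0.75, adjusted p = 0.129), or -3.31 without D8 (adjusted p = 0.0295). The adjusted p was 0.114 to 0.379 when any other dog was left out, and 0.00434 to 0.379 over all alternatives. The DM dogs and D8 lay near the floor there, as the lowest mean signal of any tested probe set was 4.76 log2. The brightest of the 3 HSPG2 probe sets, 1601147_s_at, differed by -0.88 and the remaining one by 0.84, neither with an unadjusted p under 0.05. LAMC1, the laminin gamma 1 chain, differed by -0.98 (SE 0.86) and -0.39 (SE 0.76) in 2 probe sets with overlap. LAMA4, the laminin chain of capillaries, differed by 0.20 in the brightest of its 7 probe sets.

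COL14A1, which decorates the surface of collagen fibrils, had the largest negative fold change of the 172 probe sets. Probe set 1586117_s_at had 5.12, 6.34, 5.92 and 4.82 log2 in DM dogs and 9.40, 8.95, 9.25 and 7.87 in control dogs. No DM dog reached the lowest control dog, D8, and the mean was 5.55 ± 0.70 in DM dogs and 8.87 ± 0.69 in control dogs (SD, n = 4 each), 9.96-fold lower in DM dogs on this scale (log2 fold change -3.32, SE 0.62, adjusted p = 0.0608). The deposited signals behind it were 7.10 to 67.8 in DM dogs and 231 to 684 in control dogs. The other 3 COL14A1 probe sets, which were dimmer in control dogs, differed by 0.28 to 1.09. Of all 12 probe sets of the remaining collagens this was the only one with an unadjusted p under 0.05, and 9 of the 12 had higher means in DM dogs.

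Elastic fibre and crosslinking genes had lower means in DM dogs in 12 of 17 probe sets, with a median of -0.59. At an unadjusted p under 0.05, 4 were lower and 0 higher, where 8.91% of all probe sets were lower. This row holds MFAP1 by its name, although that protein acts in splicing. FBN2, a fibrillin of the microfibrils that carry elastin, had 9.54, 7.78, 7.23 and 7.49 log2 in DM dogs and 10.64, 10.23, 10.69 and 11.00 in control dogs. The groups did not overlap, 0292 was the nearest DM dog, and D8 was the highest control dog, with a fold change of -2.63 (SE 0.64, adjusted p = 0.0881). The microfibril proteins MFAP5 (1604454_at, -2.03, SE 0.78) and MFAP4 (-1.59, SE 0.69) also had all DM dogs below all control dogs, with adjusted p of 0.217 and 0.271. MFAP4 had 7.51, 8.56, 5.40 and 7.62 in DM dogs, against 8.97, 8.92, 8.91 and 8.65 in control dogs, where 0294 came close to D8. The brightest MFAP5 probe set differed by 0.63, opposite in sign. FBLN1, a fibulin of elastic fibres that also binds fibronectin, had 7.51, 7.54, 8.21 and 9.68 in DM dogs and 9.98, 9.66, 10.51 and 8.72 in control dogs (1590441_s_at, -1.48, SE 0.68, adjusted p = 0.29). DM dog 1111 was above D6 and D8 there, and the other DM dogs were below all control dogs. FBN1, the main fibrillin of adults, differed by -0.37 to 1.27 in 4 probe sets and elastin (ELN) by -0.81 (SE 0.81), all with overlap.

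Decorin (DCN), the small proteoglycan that coats collagen fibrils and binds TGF beta, had lower means in DM dogs in all 3 of its probe sets. The brightest, 1582726_s_at, had 9.66, 11.11, 11.71 and 12.39 log2 in DM dogs, against 13.69, 13.47, 13.95 and 11.19 in control dogs. Control dogs D5, D6 and D7 were above every DM dog, and D8 was lower than 1087 and 1111. The fold change was -1.85 (SE 0.78, adjusted p = 0.255). DCN 1582724_at had D8 below 1111 and the other control dogs above every DM dog, with 7.37, 6.36, 7.66 and 9.59 in DM dogs and 11.22, 11.31, 10.85 and 8.14 in control dogs (-2.64, SE 0.86, adjusted p = 0.157), and 1582725_at differed by -1.64 (SE 0.89). Without D8 the 3 values were -2.45, -3.40 and -2.32, with adjusted p of 0.116, 0.0592 and 0.192. Over all alternatives the adjusted p of the brightest lay between 0.00657 and 0.511 and that of 1582724_at between 0.00204 and 0.421. Biglycan (BGN), the close relative of decorin, differed by -0.78 (SE 0.86) with overlap. These are all 4 proteoglycan probe sets, and 2 of them had an unadjusted p under 0.05.

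Most of the measured fibroblast markers had lower means in DM dogs. Matrix genes went both ways, with DCN lower in 3 of 3 probe sets, COL14A1 lower in 1 and higher in 3, and COL1A2 higher in 5 of 5. Of 10 listed marker genes 4 had a probe set with a gene name (DPT, PDPN, S100A4 and VIM), and none of these lay in the 2 dimmest of 5 equal bins of signal. Their summed signal was 11.18 to 12.87 log2 in DM dogs and 12.17 to 13.66 in control dogs, so the groups overlapped, with D8 the lowest control dog. VIM differed by -2.16 (SE 0.76), S100A4 by -1.71, DPT by -1.29 and PDPN by 0.63, and 1 of the 4 had an unadjusted p under 0.05. VIM and S100A4 are not limited to fibroblasts, and the platelet-derived growth factor receptors and other defining markers were not analysed here. The part of fibroblast number in the decorin and COL14A1 values was not tested.

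Among matricellular and adhesive glycoproteins, an unadjusted p under 0.05 was found for 2 higher and 1 lower of 21 probe sets. SPP1, which encodes osteopontin, a secreted phosphoprotein that binds integrins and CD44, had the largest positive fold change of the 172 probe sets. It had 11.96, 12.52, 13.98 and 13.70 log2 in DM dogs and 8.67, 8.72, 9.72 and 9.43 in control dogs. Every DM dog exceeded the highest control dog, D7, by more than 2 log2. On the deposited linear scale this was 2231, 6210, 22019 and 15977 in DM dogs, against 312, 350, 929 and 611 in control dogs. On the normalized log2 scale with its offset the fold change was 3.90 (95% interval 2.52 to 5.29 log2, adjusted p = 0.0608), which is 15.0-fold. Its adjusted p was below 0.05 without D8 and without 1111 and 0.27 without D5, and over all alternatives it lay between 0.0197 and 0.27.

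Macrophages are a main source of osteopontin in injured tissue, and macrophage markers were measured for 10 of 13 listed genes. Of 13 probe sets, 5 were higher in DM dogs and 0 lower at an unadjusted p under 0.05, and 2 had no overlap, those of LYZ and CD68. Of all probe sets, 7.8% were higher and 8.91% lower at that p, and 4.93% were higher without overlap. The summed signal of the 10 genes was 14.36 to 16.55 log2 in DM dogs and 12.41 to 13.51 in control dogs, without overlap, but most of it came from lysozyme (LYZ). Without LYZ the sum was 11.83 to 13.86 in DM dogs and 11.30 to 12.65 in control dogs, with 0294 below D6 and D7. LYZ had 15.44, 14.08, 16.34 and 15.52 in DM dogs and 11.53, 10.66, 12.34 and 12.72 in control dogs (3.53, SE 0.69, adjusted p = 0.0608). CD68 (1.47, SE 0.58), CD86 (1.74, SE 0.75), ITGAM 1599894_at (2.26, SE 0.79) and CSF1R 1596569_at (1.71, SE 0.72) also had an unadjusted p under 0.05. These ITGAM and CSF1R probe sets lay in the 2 dimmest bins of signal. The other ITGAM probe set differed by 0.63, the other 2 of the 3 CSF1R probe sets by 0.44 and -1.20, and the monocyte marker CD14 by -1.10. Of the 13 probe sets, 11 had higher and 2 lower means in DM dogs. The part of macrophage number in the SPP1 values was not tested.

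SPARCL1, a counter-adhesive matrix protein of vessels, had 14.78, 15.56, 15.26 and 15.58 log2 in DM dogs and 12.56, 12.38, 13.31 and 15.01 in control dogs in its brightest probe set, 1588998_at. D8 lay within the DM dogs there and the other control dogs were lower, with a fold change of 1.98 (SE 0.67, adjusted p = 0.172), or 2.51 without D8 (adjusted p = 0.0629, with 0.035 to 0.787 over all alternatives). Its other 3 probe sets differed by -0.38 to 0.47. CCN3, a matricellular growth regulator, had 6.42, 6.29, 5.27 and 8.30 in DM dogs, against 8.38, 8.74, 8.53 and 7.97 in control dogs (-1.84, SE 0.68, adjusted p = 0.206), with only 1111 reaching the control dogs. CCN2, or connective tissue growth factor, a target of TGF beta in fibroblasts, had 10.14, 9.55, 11.83 and 12.74 in DM dogs and 12.47, 12.14, 12.06 and 10.77 in control dogs. Its groups overlapped, and the difference was -0.79 (SE 0.77).

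Periostin, fibronectin and thrombospondins, which scar tissue makes in quantity, gave no difference beyond the spread between dogs. POSTN had 5.33, 8.92, 5.35 and 8.52 log2 in DM dogs and 4.79 to 5.81 in control dogs. Dogs 0294 and 1111 were high and 0292 and 1087 were at the control level, which gave 1.70 (SE 0.86, adjusted p = 0.338). The brightest FN1 probe set, 1598567_at, had 11.12, 11.66, 13.51 and 11.82 in DM dogs, against 11.28, 10.00, 12.41 and 10.28 in control dogs (1.03, SE 0.73), and the other 5 differed by -0.74 to 1.49. SPARC, a collagen-binding glycoprotein and among the brightest of these genes at 13.37 log2 on average, differed by -0.39 to -0.19 in 3 probe sets, and THBS1 by -0.15 (SE 0.88).

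Matrix metalloproteinases and their inhibitors likewise gave no call at an unadjusted p under 0.05, with 0 of 9 MMP and 0 of 8 TIMP probe sets. The 9 MMP probe sets had mean signals of 5.53 to 7.5 log2, where the median of the array was 7.07, and 6 of them lay in the 2 dimmest bins of signal. MMP9, the gelatinase of neutrophils and macrophages, had 7.99, 8.45, 7.38 and 6.79 in DM dogs and 6.42, 7.05, 4.92 and 7.33 in control dogs in the probe set with the smallest p, 1582994_at. The groups overlapped at 1111, and the difference was 1.22 (SE 0.68, adjusted p = 0.39), while the other MMP9 probe sets differed by 0.95 and -0.34. MMP2, the gelatinase of fibroblasts, differed by 0.86 (SE 0.82) and MMP14, the membrane-bound activator of MMP2, by 0.75 (SE 0.66). TIMP1 differed by 0.67 (SE 0.92), TIMP2 by -0.78 (SE 0.68) and the 6 probe sets of TIMP3, the TIMP bound to matrix, by -0.98 to 0.44. The brightest TIMP3 probe set, 1596821_s_at, had 12.91, 11.86, 11.84 and 11.39 in DM dogs, against 12.03, 12.48, 11.59 and 12.22 in control dogs, a difference of -0.083 with a 95% interval of -1.34 to 1.17.

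Of the ADAMs, membrane-bound proteases that shed cell surface proteins, an unadjusted p under 0.05 was reached by 2 higher and 0 lower of 9 probe sets. ADAM9 1605054_at had 14.71, 13.63, 13.89 and 13.07 log2 in DM dogs and 11.19, 10.87, 11.96 and 13.26 in control dogs. D8 was above 1111, the other control dogs were below every DM dog, and the fold change was 2.01 (SE 0.68, adjusted p = 0.169), or 2.45 without D8 (adjusted p = 0.0832, with 0.0596 to 0.674 over all alternatives). The other ADAM9 probe sets, both dimmer, differed by 0.47 and -0.64. ADAM10, the main sheddase of Notch, had 8.67, 9.38, 9.15 and 7.92 in DM dogs in probe set 1605073_at, against 7.15, 5.77, 8.06 and 7.64 in control dogs. Its 2 groups overlapped only at 1111 and D7 (1.62, SE 0.66, adjusted p = 0.241), and the brighter ADAM10 probe set differed by 0.25. The 6 ADAMTS probe sets, secreted relatives that cut proteoglycans and procollagen, differed by -1.21 to 1.88, and 0 had an unadjusted p under 0.05.

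The TGF beta ligands, binding proteins and receptor on the array showed no call at an unadjusted p under 0.05 in 6 probe sets. TGFB1 had 4.79, 8.65, 6.79 and 5.55 log2 in DM dogs and 6.29, 6.97, 7.65 and 6.48 in control dogs. The DM dogs spread on both sides of the control dogs, and the difference was -0.40 (SE 0.80). TGFB2 differed by -0.59 (SE 0.62), LTBP1 by -0.64 (SE 0.78) and LTBP3 by -1.34. TGFBR2, the receptor that binds the ligand, had 10.48, 10.62, 11.06 and 11.25 in DM dogs, against 9.83, 9.93, 10.27 and 10.13 in control dogs, in probe set 1584292_at. Every DM dog was above every control dog, but by no more than 0.81 log2 in the mean (SE 0.54, adjusted p = 0.481). The brighter TGFBR2 probe set differed by 1.20 (SE 0.68) with overlap. TGFB3, TGFBR1 and TGFBR3 were not analysed here.

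Downstream, a list of TGF beta and bone morphogenetic protein (BMP) signalling genes held 14 measured genes of 36 with 21 probe sets, of which 4 were higher and 0 lower at an unadjusted p under 0.05. Over all probe sets 7.8% were higher and 8.91% lower. SMAD2, which TGF beta receptors phosphorylate, had 10.60, 10.71, 11.50 and 10.55 log2 in DM dogs and 8.77, 8.58, 8.72 and 9.24 in control dogs in probe set 1592586_at. Both SMAD2 probe sets had all DM dogs above all control dogs, by 2.02 (SE 0.55, adjusted p = 0.112) and 1.84 (SE 0.56, adjusted p = 0.138). SMURF2, a ubiquitin ligase that turns over SMADs and receptors, had 9.75, 11.40, 11.90 and 10.89 in DM dogs, against 8.78, 8.36, 8.27 and 9.47 in control dogs (1591288_at, 2.27, SE 0.64, adjusted p = 0.118). The fourth probe set was BMP7 1582920_at (1.5, SE 0.68). Of the receptors, BMPR1A differed by -0.98 (SE 0.57) and endoglin (ENG) by -1.20 (SE 0.64).

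Serpins held 2 higher and 2 lower probe sets of 23 at an unadjusted p under 0.05. SERPINF1, the anti-angiogenic factor PEDF that fibroblasts secrete, had 6.69, 6.33, 6.92 and 7.38 log2 in DM dogs and 9.74, 9.95, 9.75 and 8.99 in control dogs in probe set 1584393_at. The groups were apart by more than the SD of either, 0.44 in DM dogs and 0.43 in control dogs, and the fold change was -2.78 (SE 0.56, adjusted p = 0.0646). The dimmer SERPINF1 probe set had 7.43, 6.74, 4.95 and 6.60 in DM dogs, against 8.14, 8.46, 8.32 and 4.69 in control dogs, so D8 was below every DM dog and the difference was -0.97 (SE 0.88). SERPING1, the C1 inhibitor of complement and kallikrein, had 5.54, 5.00, 5.47 and 6.47 in DM dogs and 8.66, 8.69, 8.63 and 5.00 in control dogs. D8 alone was at the DM level, and the fold change of -2.12 (SE 0.84, adjusted p = 0.229) was -3.05 without D8 (adjusted p = 0.0397, with 0.00678 to 0.502 over all alternatives). SERPINB11 had 8.02, 7.78, 6.00 and 6.68 in DM dogs and 4.70 to 4.92 in control dogs (2.30, SE 0.62, adjusted p = 0.106). SERPINA7, the thyroxine-binding globulin of plasma, had 8.53, 7.83, 7.39 and 7.52 in DM dogs, against 6.33, 5.05, 7.11 and 4.59 in control dogs (2.04, SE 0.68, adjusted p = 0.163). Both had all DM dogs above all control dogs, and both had mean signals under the array median of 7.07 log2. SERPINH1, the collagen chaperone HSP47, differed by -0.83 (SE 0.81) with overlap.

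Genes that process collagen, from a list of 20 of which 9 were measured with 11 probe sets, were split, with 2 higher and 2 lower at an unadjusted p under 0.05. CRTAP, a part of the collagen prolyl 3-hydroxylase complex, had 11.90, 10.88, 11.47 and 11.12 log2 in DM dogs and 9.40, 9.01, 9.93 and 9.94 in control dogs, without overlap (1.77, SE 0.57, adjusted p = 0.151). TGM2, a transglutaminase that crosslinks matrix, had 8.95, 8.70, 8.88 and 7.93 in DM dogs, against 4.75, 4.73, 6.16 and 7.65 in control dogs, in probe set 1603295_at (2.79, SE 0.72, adjusted p = 0.0986), but its other probe set differed by -1.38 (SE 0.66). PCOLCE, the enhancer of procollagen cleavage, differed by -2.14 (SE 0.83), and the prolyl 4-hydroxylase subunit P4HA2 by -1.51 (SE 0.62) and 0.84 (SE 0.79) in its 2 probe sets.

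Receptors for matrix were measured for 17 of 28 listed genes with 29 probe sets, of which 3 were higher and 4 lower at an unadjusted p under 0.05. Over all probe sets 7.8% were higher and 8.91% lower. ITGA5, the alpha chain of the fibronectin receptor, had 6.69, 5.01, 9.25 and 8.82 log2 in DM dogs and 10.72, 11.00, 10.72 and 9.63 in control dogs, without overlap (1588588_at, -3.07, SE 0.87, adjusted p = 0.12), but its dimmer probe set differed by 1.49 (SE 0.79). CD47, a thrombospondin receptor, differed by -2.84 (SE 0.77) and -2.78 (SE 0.82) in its 2 brightest probe sets, and the laminin receptor chain of muscle, ITGA7, by -1.88 (SE 0.77). ITGB5 (1.66, SE 0.61), ITGB8 (2.30, SE 0.78) and CD36 (1.26, SE 0.56) were the higher ones. For the osteopontin receptor CD44 the difference was 0.53 (SE 0.58). Among cathepsins and other proteases, with 6 of 9 genes and 12 probe sets, 4 were higher and 0 lower, beside the same shares of all probe sets. Of these, 3 were CTSS, the elastin-cutting cathepsin S of macrophages, whose brightest probe set had 14.75, 13.74, 15.14 and 14.19 in DM dogs and 10.30, 10.21, 11.80 and 11.89 in control dogs (3.40, SE 0.64, adjusted p = 0.0608). The other 2 CTSS probe sets, both dimmer than this one, differed by -1.33 (SE 0.85) and 0.52 (SE 0.80). The fourth was RECK, a membrane-anchored inhibitor of MMPs, with 9.15, 7.33, 8.67 and 7.40 in DM dogs, against 6.83, 5.03, 6.61 and 5.17 in control dogs (2.23, SE 0.69, adjusted p = 0.139). Cathepsin K, a collagenase, differed by 0.83 and 0.55, and cathepsin B by -1.25 and -0.21, all with overlap.

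The hybridization and RNA measures of the arrays had higher means in DM dogs. The groups overlapped at D8, which stood apart from the other control dogs. The 18 hybridization controls, transcripts added in fixed amounts, had a mean deposited signal of 16.32 ± 1.05 log2 in DM dogs and 13.88 ± 1.27 in control dogs (SD over 4 dogs each, with p = 0.0571 by a two-sided exact permutation test), with 15.77 in D8 and 13.09 to 13.36 in D5, D6 and D7. Actin signal at the 3′ end over that at the 5′ end, which is larger where RNA is degraded, was 6.02, 5.62, 3.59 and 7.71 log2 in DM dogs and 1.69, 1.35, 3.04 and 7.79 in control dogs D5, D6, D7 and D8 (two-sided exact permutation p = 0.229). All DM dogs were above D5, D6 and D7, and D8 was the highest of the 8, so the RNA measure moved with the groups and with D8, and its part in the matrix values was not tested. No batch or scan date is given in the sources used here, so diabetes cannot be told apart from a batch of arrays. Summed markers of cardiomyocytes were 16.94 to 17.75 log2 in DM dogs and 18.14 to 19.42 in control dogs. In the same order, those of smooth muscle cells were 11.91 to 12.56 and 12.80 to 13.88, and those of endothelial cells 13.41 to 15.56 and 14.64 to 15.41. Of 41 cardiomyocyte probe sets, 12 had higher and 29 lower means in DM dogs. At an unadjusted p under 0.05, 4 of these were higher, all of TTN, and 14 were lower. The brightest MYH7 probe set differed by -0.63 and TTN 1605270_s_at by 2.42. Of 11 smooth muscle probe sets, 6 had higher and 5 lower means in DM dogs. At an unadjusted p under 0.05, 0 of them were higher and 4 lower. In the brightest of each gene, SMTN differed by -3.87, DES by -2.47, TAGLN by -1.81, MYH11 by -0.93 and ACTA2 by 0.41. The part of these cell types in the matrix values was not tested. D8 was the control dog nearest to the DM mean in 17 of the 26 matrix probe sets with an unadjusted p under 0.05, and in 12 of the 15 lower ones. Over all 172 it was nearest in 53, and over all 3983 tested probe sets with an unadjusted p under 0.05 in 2239. The spread was wider in DM dogs for 122 of the 172 probe sets (70.9%), against 76.7% of all, with a median SD of 1.16 log2 in DM dogs and 0.75 in control dogs.

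Probe sets of 1 gene often disagreed. Of the 36 genes with several, which hold 118 probe sets, 13 had all fold changes of 1 sign and 23 had both signs. Those of 1 sign included DCN (3 of 3 lower) and COL1A2 (5 of 5 higher), and also SPARC (3 of 3 lower), COL1A1, FBLN1, LAMC1 and SERPINF1 (2 of 2 lower each) and TGFBR2 and ADAM10 (2 of 2 higher each). Of the 5 COL1A2 probe sets 1 had an unadjusted p under 0.05, and 1582723_at was -0.074 without D8. Over all alternatives 1582723_at lay between -2.11 and 0.93, 1594426_at and 1594427_at went down to -1.36 and -1.14, and 1589596_at stayed between 0.32 and 2.47. COL4A1 spanned -2.70 to 1.32 and COL14A1 -3.32 to 1.09. HSPG2 spanned -2.54 to 0.84 and MFAP5 -2.03 to 1.38.

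**Figure D3:**
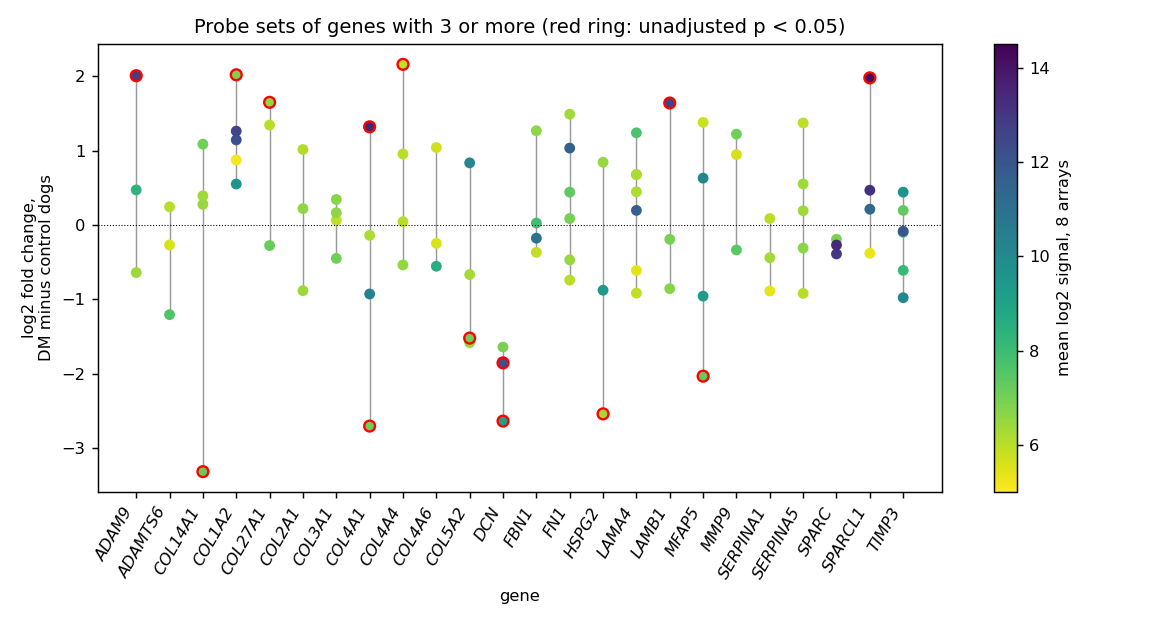
Log2 fold change (DM minus control dogs, y axis) of every probe set of the 24 genes that have 3 or more, joined by a line per gene and coloured by mean log2 signal over the 8 arrays; red rings have an unadjusted p under 0.05. DCN lies wholly below 0 and COL1A2 wholly above, while COL4A1 has a bright ringed probe set at 1.32 and a dimmer one at -2.70.

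Fold changes moved with the signal level across the array, and the matrix probe sets followed this except among the brightest. The 5 bins each held an equal number of tested probe sets. In the dimmest bin the median log2 fold change was 0.28 for the 41 matrix probe sets and 0.47 for all, and in the next bin 0.22 for 39 and 0.36 for all. In the third and the fourth bin the medians were -0.34 and -0.59 for the matrix probe sets (25 and 29), against -0.075 and -0.37 for all. In the brightest bin the median was 0.43 for the 38 matrix probe sets and -0.24 for all, with 5 higher and 4 lower at an unadjusted p under 0.05. The 5 higher ones were the probe sets of SPARCL1, COL4A1, ADAM9, LAMB1 and SPP1 given above, and the 4 lower ones were those of FBN2, FBLN1 and DCN. No test was made of the difference in medians. Since 16 was added before log2, changes of dim probe sets are understated, and whether the dim ones lay above background was not measured here.

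**Figure D4:**
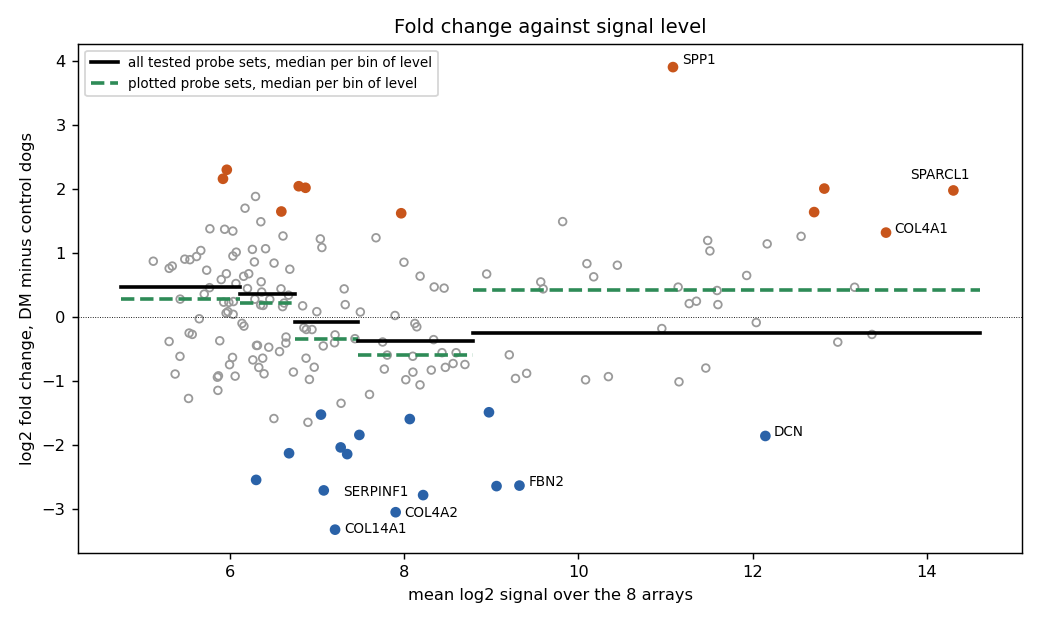
Log2 fold change (DM minus control dogs, y axis) against mean log2 signal over the 8 arrays (x axis) of the 172 probe sets; filled points have an unadjusted p under 0.05, and lines are medians per bin of signal for all tested probe sets (solid) and for the plotted ones (dashed). The dashed line is below the solid one in the first 4 bins and above it in the brightest, at 0.43 against -0.24.

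The direction of the 26 probe sets with an unadjusted p under 0.05 was the same in 502 of 507 values over the alternatives tried, and all 5 exceptions came from scaling the arrays to the hybridization controls. These probe sets were chosen by that p, and fewer of the 26 kept both the direction and an unadjusted p under 0.05, with 15 under that scaling, 17 without D6, 18 without D5, 18 without probe sets under the median signal (where some of the 26 were not fitted) and 19 to 26 under each of the others. That scaling moved the median of all tested probe sets to -1.65 and turned LAMB1, COL4A1 1603400_s_at, ADAM9, ADAM10 and SPARCL1 below 0. SPP1 kept a positive value there, 1.62, and lay between 1.62 and 4.58 over all alternatives. COL14A1 lay between -5.19 and -2.42, SERPINF1 between -4.98 and -2.35, and COL4A1 1582733_at between -4.40 and -1.95. Without D8, 6 matrix probe sets had an adjusted p under 0.05, against 323 of all tested, and these were SPP1, COL14A1, HSPG2, SERPINF1, SERPING1 and COL4A1 1582733_at. Without 1111 there were 5, against 475 of all tested. For HSPG2, SERPING1, COL14A1, SERPINF1 1584393_at, COL4A1 1582733_at, DCN, SPARCL1 and ADAM9, D8 was the control dog nearest to the DM dogs. Leaving D8 out was bound to enlarge the difference in these. The probe sets that passed without 1111 included COL4A2, SERPINF1 1584393_at and COL4A1 1582733_at. In these, 1111 was the DM dog nearest to the control dogs, so leaving 1111 out was likewise bound to enlarge the difference. For HSPG2, SERPING1 and DCN the lowest adjusted p given above came from scaling to the hybridization controls. Under that scaling 32.2% of all tested probe sets had an adjusted p under 0.05.

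**Figure D5:**
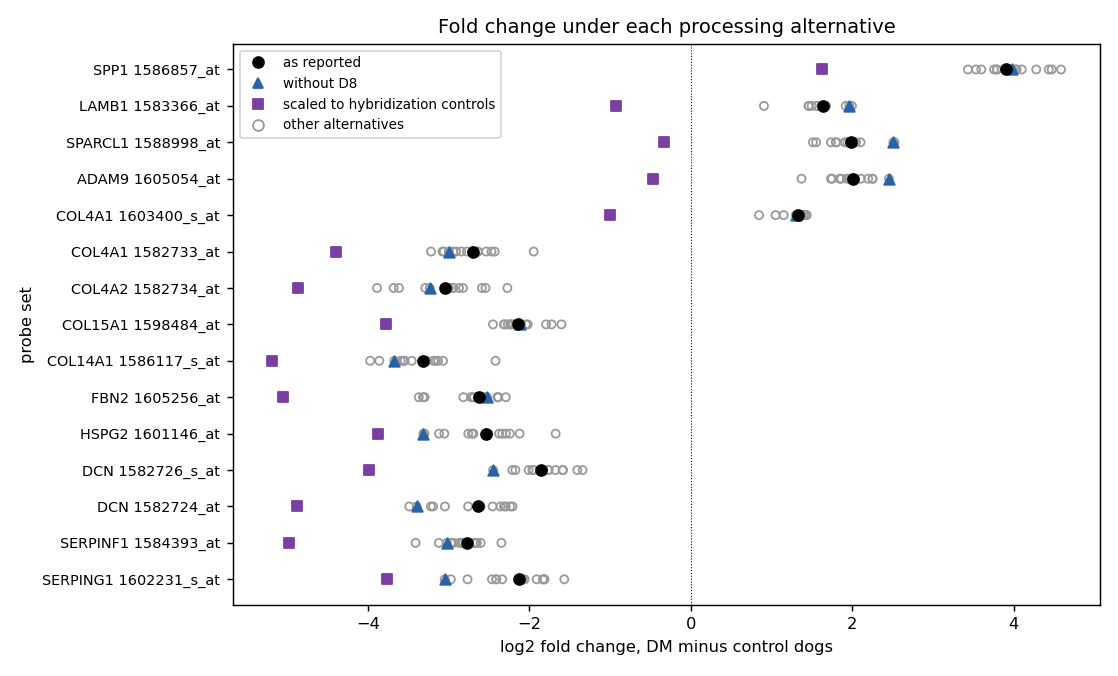
Log2 fold change (DM minus control dogs, x axis) of 15 probe sets as reported (black), without control dog D8 (triangle), with arrays scaled to the hybridization controls (square) and under the other alternatives (open circles). The squares lie to the left of all other points, and for LAMB1, SPARCL1, ADAM9 and COL4A1 1603400_s_at they are below 0.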

How the data were processed

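Left ventricular RNA of 4 DM dogs and 4 control dogs was hybridized to 1 Affymetrix Canine Genome Array per dog. The authors summarised the images with MAS 5.0, per the labels, and deposited 1 linear signal intensity per probe set. The mean of each array without its lowest and highest 2% of values was 500, the mark of scaling by a single factor. The RMA values that the methods name are not these values. The deposit's overview and the methods differ in the number of dogs, and only these 8 arrays were analysed. Detection calls were not used, and the number of arrays limits the precision.

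Signals were scaled to 500, quantile normalized over all 23913 probe sets, raised by an offset of 16 and taken to log2. The 77 manufacturer controls were then left out. Group was the only term in a limma 3.58.1 fit (lmFit and eBayes, R 4.3.3) to the other 23836 probe sets; its two-sided p was adjusted over all of them by Benjamini-Hochberg, with a threshold of 0.05. The methods' two-class test with equal variances was run on the same values. For a single array measure an exact permutation test went through the 70 ways to split the dogs, where the smallest p is 0.0286. The steps were tested on simulated data, and figures were drawn with matplotlib 3.10.9.

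Gene symbols came from the array annotation, where 10549 probe sets have 1 symbol, 138 several and 13149 none; of the 172 matrix probe sets 166 matched a current gene identifier and 0 symbols changed. Members and lists were chosen with earlier results of these data known. Named were up to 4 probe sets per role with the smallest unadjusted p under 0.05, the brightest of each role, genes with opposite calls, and 43 genes whatever their values, of which 30 were on the array. This gave 88 probe sets, and other genes were chosen after their values were seen, apart from lists. Bins of level hold equal numbers of tested probe sets, by mean log2 signal.

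Alternatives were no quantile normalization, median centring, cyclic loess, scaling to the hybridization controls, no offset (signals under 1 set to 1), an offset of 64, leaving out probe sets under the median signal or the _s_at and _x_at probe sets, array weights, the methods' test, leaving out each dog, and leaving out D8 and 0292 together. Quantile normalization over the tested probe sets only and the macrophage sum without LYZ were added after seeing the data.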

Additional observations from a re-analysis of the deposited data

Results flagged for a closer look

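In 17 of 176 checks, 1 dog lay far from the other 3 of its group in a named probe set. The gap to the nearest other dog, as a share of the range of the group, was above the 95% critical value of Dixon for 4 values. Chance alone gives about 1 in 20, and probe sets of a gene are not independent. Of the 17, 5 were in DM dogs and 12 in control dogs, and 9 of the 12 were D8.

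D8 was low for HSPG2 1601146_at (share 0.91), ELN 1584919_at (0.898), LAMC1 1589041_at (0.848), COL4A1 1587555_at (0.898), DCN 1582724_at (0.854), DCN 1582725_at (0.879), SERPINF1 1601724_at (0.913) and SERPING1 1602231_s_at (0.985), and high for ADAMTS6 1597381_at (0.917). In SERPING1, D8 had 5.00 log2 and the other control dogs 8.63 to 8.69. In LAMC1 1589041_at, D8 had 6.14, against 8.32 to 8.71. Other control dogs stood apart for FBN1 1584905_at, where D7 was high (0.92), LAMB1 1593165_at, where D7 was low (0.859), and FN1 1582799_s_at, where D5 was low (0.844).

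Among DM dogs, 0294 was low for FBN1 1595549_at (0.979), with 4.67 log2 against 8.07 to 8.14 in the others, and high for FN1 1583016_at (0.835). DM dog 0292 was low for MMP14 1582822_at (0.953), 1111 was high for SERPINA1 1583438_s_at (0.927) and 1087 was low for TIMP3 1583532_at (0.925), with 8.42 against 9.93 to 10.05.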

How the results depend on the processing

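The count of 172 matrix probe sets at an adjusted p under 0.05, 0 as reported, was 4 with median centring, 1 with cyclic loess, 57 with scaling to the hybridization controls, 5 with an offset of 64, 8 with array weights and 8 without D8 and 0292 together, against 0.994%, 0.101%, 32.2%, 1.87%, 3.87% and 3.99% of all tested probe sets, so the 57 were 33.1% of the matrix probe sets beside 32.2% of the array; leaving out 1 dog gave 0 to 6, with 6 without D8 and 5 without 1111. The count higher in DM dogs at an unadjusted p under 0.05, 11 as reported, was 5 with median centring, 0 with scaling to the hybridization controls and 6 without probe sets under the median signal, where 77 of the 172 remained in the fit, and 7 to 16 when 1 dog was left out, 7 without D6. The count of lower ones, 15 as reported, was 79 with scaling to the hybridization controls, where 45.2% of all tested probe sets were lower, and 10 to 17 when 1 dog was left out. The median log2 fold change, 0.073 as reported, was 0.28 with no quantile normalization, -0.31 with median centring, -0.052 with cyclic loess, -1.80 with scaling to the hybridization controls, -0.28 without probe sets under the median signal, -0.066 without D8 and 0292, and -0.056 to 0.089 when 1 dog was left out; the medians of all tested probe sets in the first 4 of these were 0.34, -0.25, 0.024 and -1.65. With scaling to the hybridization controls ADAM10 1605073_at was -0.35, ADAM9 1605054_at -0.47, LAMB1 1583366_at -0.93, SPARCL1 1588998_at -0.33 and COL4A1 1603400_s_at -1.0. The causes were not tested. No paired analysis was possible because the labels give the dogs of the groups no shared numbers.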
